A study of Arabidopsis thaliana with 6 samples.

Results

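Salicylate is the hormone with which leaves mount defence against biotrophic microbes. It acts through the co-activator NPR1, which has no DNA-binding domain of its own and works with TGA transcription factors at promoters of defence genes. The 8 genes described here, chosen by name and found by their locus identifiers, are outputs of this route: the pathogenesis-related genes PR1, PR2 and PR5, the NPR1-binding repressors NIMIN1 and NIMIN2, and the transcription factor genes WRKY38, WRKY62 and WRKY70. All 8 were present in each of the 3 deposited tables, which shared 20575 genes with values. They were chosen with earlier results of these data known, so their shares set against all genes below are descriptions.

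The 6 libraries came from rosette leaves of Arabidopsis thaliana, ecotype Columbia, raised in a greenhouse under long days. Wild type (WT) was compared with ibm1-3, a mutant of IBM1, whose product removes histone H3 lysine methylation from gene bodies. In low light there was 1 library per genotype, from plants of 40 days, and after 48 hours of high light there were 2 per genotype, from plants of 30 days, so light, age and deposited table cannot be told apart. The labels name no other allele or agent and do not give the nature of the ibm1-3 lesion. They do not say whether the numbered samples were separate plants or pools. The main p-values below rest on how far the genotype ratios of the 2 high light tables differ, moderated by the spread over all genes. Differences shared by both libraries of a table do not enter, and part of the spread that does may be technical.

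The low light table held 15425082 reads for WT and 13099267 for ibm1-3, and high light pair 1 held 12121246 and 12502408 estimated fragments. The table of pair 2 gave no depth. IBM1 itself (AT3G07610) stood at 13.81 FPKM (fragments per kilobase of transcript, scaled to library depth) in WT and 17.6 in ibm1-3 in pair 1, at 8.34 and 7.46 FPKM in pair 2, and at 643 and 399 reads in low light. Its transcript thus did not check the high light labels, and ibm1-3 below means the libraries labelled so. The 5 rosette leaf markers were detected in every library, and all 5 were lower in ibm1-3 after high light, with summed levels of 18900 and 30400 FPKM in WT against 3260 and 6130 in ibm1-3. In low light their sums were 9390 and 5130 RPKM (depth-scaled reads per kilobase), and 4 of 5 were at least 2-fold lower in ibm1-3, against 9.73% of all genes. Here and below, rose and fell mean higher and lower in ibm1-3 than in WT in the same light. No change with light within a genotype was tested. Of the markers tested after high light, 1 of 3 for guard cells, 3 of 4 for phloem and vessel and 3 of 5 for epidermis rose. The 1 root marker tested (PHT1.4) rose too, while 2 for guard cells and 2 for epidermis fell. In the same fit 49.2% of all genes rose and 26% fell, so these small counts are descriptions. With median-ratio size factors, another scaling, 0 of 3 guard cell, 2 of 4 phloem and vessel and 3 of 5 epidermis markers rose, against 38.9% of all genes. The 4 floral markers were below the filter. In pair 1 PI had 26 fragments in WT and 0 in ibm1-3, AG 0 and 21, SEP3 1 and 13, and AP3 0 and 2. Of 4 senescence markers 1 rose and 2 fell, with summed levels of 982 and 1020 FPKM in WT against 356 and 471 in ibm1-3. In bulk tissue, fewer cells of a type and less RNA per cell cannot be told apart, and the part of these shifts in the results below was not tested.

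PR1 encodes a secreted protein of the CAP superfamily and is the usual marker of the salicylate response, PR2 a beta-1,3-glucanase, and PR5 a thaumatin-like protein. PR1 (AT2G14610) lies at chr2:6241640-6242541, PR2 (AT3G57260) at chr3:21188517-21189859 and PR5 (AT1G75040) at chr1:28177670-28179022, in TAIR10 coordinates as deposited. NIMIN1 (AT1G02450, chr1:497917-498539) and NIMIN2 (AT3G25882, chr3:9470357-9471039) encode small proteins that bind NPR1, and NIMIN1 is known to dampen PR1 induction. WRKY38 (AT5G22570, chr5:7495455-7496990) and WRKY62 (AT5G01900, chr5:350925-352095) encode salicylate-induced transcription factors that act as negative regulators of basal resistance. WRKY70 (AT3G56400, chr3:20908711-20910623) promotes salicylate genes and holds back jasmonate genes. PR5 is on the forward strand and the other 7 on the reverse strand. PR1, NIMIN1 and NIMIN2 have 1 exon in RefSeq, PR2, PR5 and WRKY62 have 2, and WRKY38 and WRKY70 have 3. No other annotated gene overlaps any of the 8, and 0 of the 50-base windows of their transcripts occur elsewhere in the genome.

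Promoter stretches of 200 bases are shown for genes on which the comparisons turn: WRKY62 and WRKY38, which were higher in ibm1-3 in all 3 pairs, and NIMIN2 and WRKY70, whose genotype ratio had opposite signs in low and high light. They are read 5′ to 3′ on the gene's own strand from RefSeq TAIR10.1, whose annotation gave the same start and end as the deposited table for 63.2% of 22259 genes and for 7 of the 8 described here (PR2 differs at both ends). Capitals mark the core TTGAC, shared by elements that WRKY proteins bind, and the core TGACG, shared by elements that TGA factors bind, searched on both strands. The 2 cores overlap where TTGACG occurs. Each stretch was picked for the most cores in 200 bases, the one nearest the start where counts tied. The stretches are chr5:352551-352750 for WRKY62 (655 to 456 bases upstream of the annotated start) and chr5:7496991-7497190, chr3:9471040-9471239 and chr3:20910624-20910823 for the others (the 200 bases next to the start). The 200 bases next to the start of WRKY62 hold 1 TTGAC and 0 TGACG cores.
WRKY62: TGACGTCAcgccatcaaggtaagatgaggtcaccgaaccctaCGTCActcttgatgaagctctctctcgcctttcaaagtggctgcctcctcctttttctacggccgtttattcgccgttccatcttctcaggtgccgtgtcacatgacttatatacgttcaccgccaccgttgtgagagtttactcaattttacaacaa
WRKY38: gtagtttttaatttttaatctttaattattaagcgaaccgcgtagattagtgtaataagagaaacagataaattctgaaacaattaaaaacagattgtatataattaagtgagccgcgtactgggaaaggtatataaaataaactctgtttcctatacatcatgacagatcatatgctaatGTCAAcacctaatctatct
NIMIN2: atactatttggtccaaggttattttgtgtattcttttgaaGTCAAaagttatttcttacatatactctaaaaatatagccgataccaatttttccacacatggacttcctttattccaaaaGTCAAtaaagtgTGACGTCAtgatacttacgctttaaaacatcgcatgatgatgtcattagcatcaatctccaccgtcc
WRKY70: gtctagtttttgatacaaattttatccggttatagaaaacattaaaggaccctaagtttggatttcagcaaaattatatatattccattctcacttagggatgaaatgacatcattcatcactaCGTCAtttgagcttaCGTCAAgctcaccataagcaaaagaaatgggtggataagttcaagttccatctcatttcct
In the WRKY62 and NIMIN2 stretches 2 TGACG cores form a palindrome, and in that of WRKY70 both TGACG cores lie within 76 bases of the start. Within 1000 bases upstream, all 7 genes searched, the members other than PR1, have at least 1 TTGAC core, as do 88.1% of 27443 promoters. TGACG occurs in 6 of the 7, against 54.1%, and PR5 has 0. At least 2 TGACG cores occur in 5 of the 7, against 21.3% of promoters. A match is a description of the sequence, not a binding site. WRKY38 has 1 core of each kind, while NIMIN2 has 3 TTGAC and 3 TGACG cores and WRKY70 has 1 and 2.

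**Figure D1:**
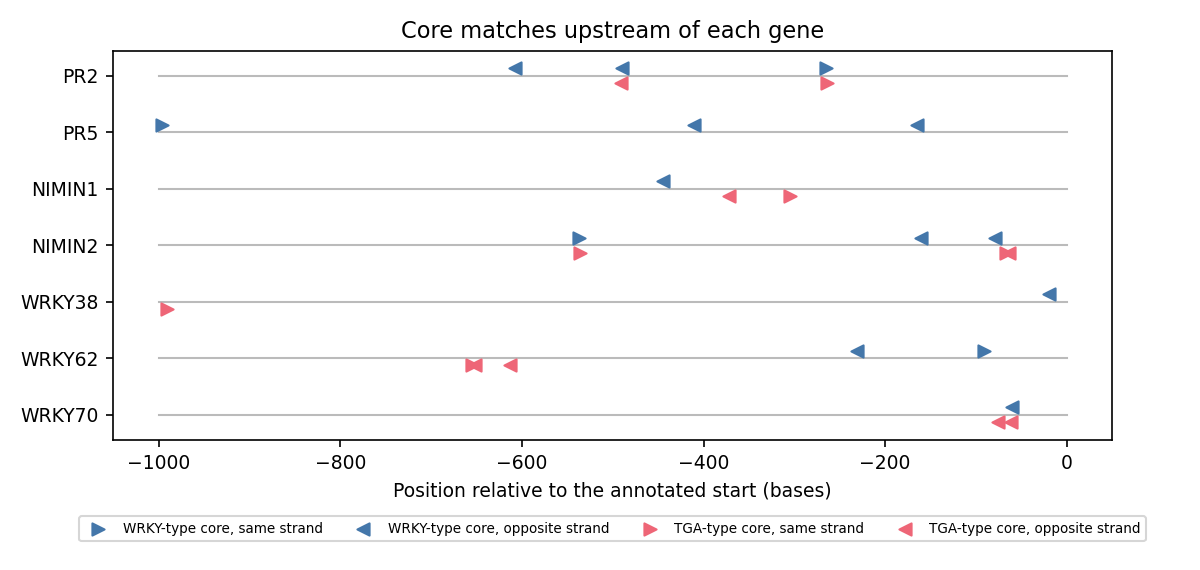
Matches of the WRKY-type core (blue) and the TGA-type core (red) in the 1000 bases upstream of 7 of the 8 genes, by distance in bases from the annotated start; arrowheads give the strand relative to the gene. NIMIN2 and WRKY62 carry 3 matches each of the TGA-type core, and PR5 carries 0.

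After high light, the 3 PR genes differed from one another. PR1 measured 10.98 (pair 1) and 12.53 FPKM (pair 2) in WT, against 44.71 and 83.78 FPKM in ibm1-3, 4.07 and 6.69 times WT. Both ibm1-3 libraries were above both WT libraries. The log2 fold change was 2.29 ± 0.15 (SE, n = 2 per genotype; limma on log2(FPKM + 1), Benjamini-Hochberg adjusted p = 6.55e-06 over 17399 genes), on a scale that understates the change of genes near 1 FPKM.

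PR2 was the most abundant member and moved little. WT held 1400.25 and 1461.08 FPKM and ibm1-3 held 1050.51 and 1102.7, so the groups did not overlap and WT was 1.33 times ibm1-3 in each pair. The log2 fold change was -0.41 ± 0.07 (SE, n = 2 per genotype; limma adjusted p = 0.000897). The median of all genes stood at 0.251 in this fit and at 0.042 with size factors, under which PR2 stood at -0.64. PR5 stood at 251.02 and 392.7 FPKM in WT against 259.62 and 425.26 in ibm1-3. Taken over both tables the PR5 values overlapped between genotypes, while within each table ibm1-3 was 1.03 and 1.08 times WT. Its log2 fold change of 0.08 ± 0.06 did not pass (limma adjusted p = 0.238). With size factors PR5 turned to -0.15 and passed (limma adjusted p = 0.0231), so no direction is given for it.

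Of the repressors, NIMIN2 was well expressed and NIMIN1 low. For NIMIN2 the WT libraries gave 33.39 and 21.14 FPKM, and the ibm1-3 libraries 59.74 and 37.66. Both ibm1-3 values exceeded both WT values, and within each table the ratio was nearly the same, 1.79 and 1.78. The log2 fold change was 0.81 ± 0.07 (SE, n = 2 per genotype; limma adjusted p = 1.97e-05), and 0.49 without WT replicate 2 or ibm1-3 replicate 1. For NIMIN1 the values were 2.33 and 1.86 FPKM (WT) and 4.8 and 2.54 FPKM (ibm1-3). In pair 1 this was 17 against 36 fragments, or 1.04 on the log2 scale (0.17 to 1.96, exact 95% Clopper-Pearson interval for counting error only). Its fold change of 0.55 ± 0.16 passed (limma adjusted p = 0.0156) but not with size factors (0.39, adjusted p = 0.0621). It was 0.2 without ibm1-3 replicate 1 and 0.91 without ibm1-3 replicate 2, and in pair 2 its rank among all genes was lower in ibm1-3 (percentile 26.9) than in WT (28.6).

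The 3 WRKY genes split by level. WRKY38 was scarce in WT, with 1.14 and 1.18 FPKM, and reached 8.5 and 9.52 FPKM in ibm1-3. WRKY62 had WT values of 1.38 and 2.55 FPKM and ibm1-3 values of 8.95 and 11.25. For both genes the ibm1-3 libraries were above the WT libraries, 7.46 and 8.07 times for WRKY38 and 6.49 and 4.41 times for WRKY62. Their log2 fold changes were 2.21 ± 0.13 (limma adjusted p = 3.21e-06) and 1.93 ± 0.13 (adjusted p = 7.18e-06; n = 2 per genotype). In pair 1 the WT values rested on 18 fragments each, and the counting intervals of the log2 ratios ran from 2.18 to 3.69 and from 1.97 to 3.5. WRKY70 was abundant and went the other way: 182.71 and 216.92 FPKM in WT against 110.01 and 123.05 FPKM in ibm1-3, with no overlap. Its log2 fold change was -0.77 ± 0.06 (SE, n = 2 per genotype; limma adjusted p = 1.39e-05).

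**Figure D2:**
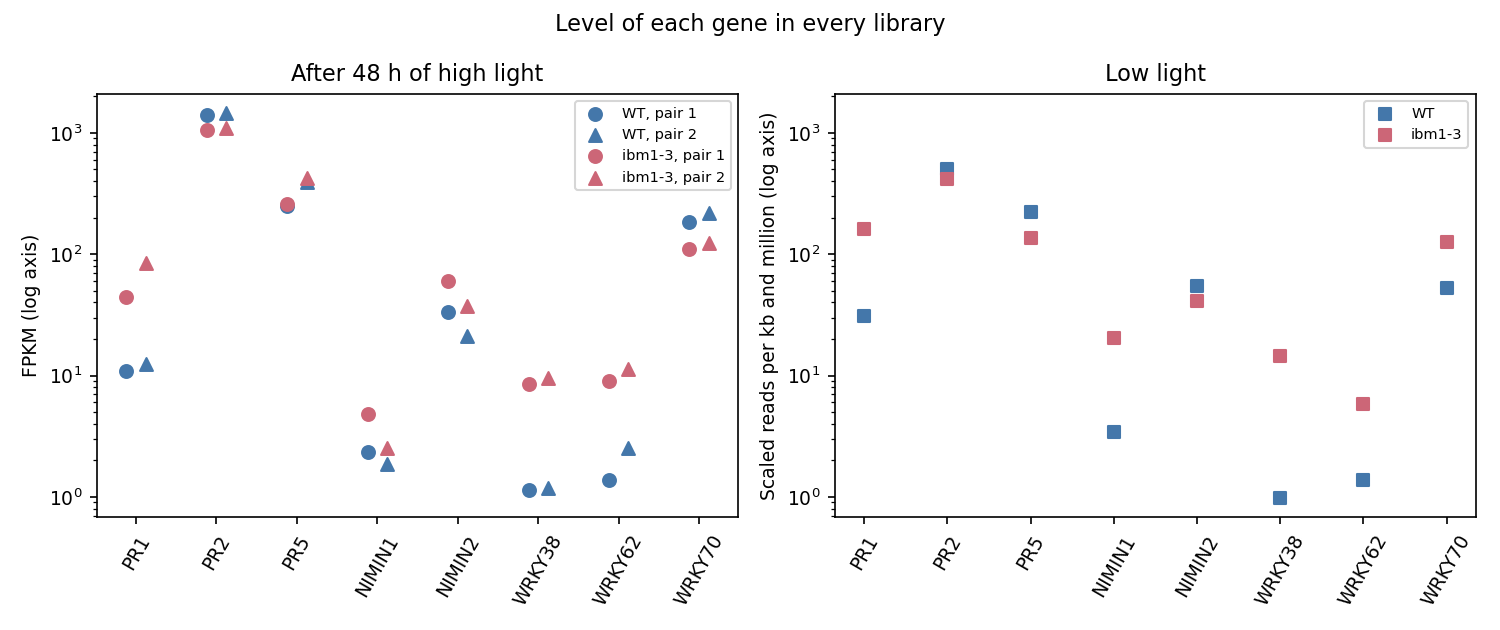
Level of each of the 8 genes in every library on log axes, as FPKM after high light (left; circles pair 1, triangles pair 2) and as depth-scaled reads per kilobase in low light (right; 1 library per genotype), with WT in blue and ibm1-3 in red. PR1, WRKY38 and WRKY62 were higher in ibm1-3 in every pair, and WRKY70 was lower in ibm1-3 in both high light pairs and higher in low light; each table was normalized separately, so levels compare within a table.

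In all, 7 of the 8 genes passed after high light, 5 higher (PR1, NIMIN1, NIMIN2, WRKY38, WRKY62) and 2 lower (PR2, WRKY70), with a median log2 fold change of 0.68. This stands against 75.2% of all 17399 genes that passed, 49.2% higher and 26% lower, so the count of calls is near the background. PR1, WRKY38 and WRKY62 (3 of 8) passed with at least a 2-fold rise on this scale, as did 19% of all genes. Taken over both tables, which were normalized separately, the FPKM of the genotypes did not overlap for 7 of the 8, against 65.2% of all genes. This count takes no account of the pairing within tables. With size factors 4 rose and 3 fell, and 38.9% of all genes were higher and 35.1% lower. Without the replicate block, which here is the deposited table, PR1, WRKY38 and WRKY62 passed (adjusted p = 0.0202, 0.00849 and 0.0184) and the other 5 did not. In that fit 4622 of all 17399 genes passed, fewer than in the main fit. Reduced fits drop 1 library each and also take in differences between the tables. Their log2 fold changes ran from 1.84 to 2.74 for PR1, 2.14 to 2.28 for WRKY38 and 1.64 to 2.21 for WRKY62. They ran from -0.44 to -0.38 for PR2, 0.2 to 0.91 for NIMIN1, 0.49 to 1.14 for NIMIN2 and -0.89 to -0.65 for WRKY70. These fits leave 1 library in a group, and far fewer of all genes passed in each of them than in the main fit. PR1 missed the threshold without WT replicate 1 (0.0594) and without WT replicate 2 (0.0531), WRKY62 without WT replicate 1 (0.0655), and PR2, NIMIN1, NIMIN2 and WRKY70 in all 4 fits (lowest adjusted p = 0.104).

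Low light had 1 library per genotype and no replicate check. There, 5 of the 8 genes were at least 2-fold higher in ibm1-3 and 0 at least 2-fold lower. Over 16509 genes the shares were 5.68% and 9.73%. The 8 were chosen with earlier results of these data known, so this contrast is a description, not a test. The median log2 ratio of the 8 was 1.65, and that of all genes 0.011. For PR1, 390 reads in WT stood against 2083 in ibm1-3, which after scaling is a log2 ratio of 2.39 (95% counting interval from 2.24 to 2.55). WRKY38 had 18 and 271 reads, a log2 ratio of 3.82 (3.2 to 4.66). NIMIN1, which had moved least among the genes that rose in high light, had 30 and 183 reads and a log2 ratio of 2.54 (2.02 to 3.19). WRKY62 had 21 and 90 reads, a log2 ratio of 2.02 (1.38 to 2.83). WRKY70 rested on 1082 WT and 2656 ibm1-3 reads, a log2 ratio of 1.27 (1.17 to 1.37), and so was higher in ibm1-3 here. PR5 (3409 and 2117 reads, -0.71, from -0.79 to -0.63), NIMIN2 (530 and 400 reads, -0.43, from -0.62 to -0.24) and PR2 (8927 and 7410 reads, -0.29, from -0.34 to -0.25) were lower in ibm1-3 by less than 2-fold. Scaling by total reads in place of TMM moved the median of all genes to 0.27, left all 8 signs as they were, and brought PR2 to -0.03, NIMIN2 to -0.17 and PR5 to -0.45. A senescence marker, SAG12, was listed at 0 in WT and had 156 reads in ibm1-3 in the same pair, NAP had 2891 and 4942, SAG13 13643 and 18086, and SEN1 503 and 146. The summed level of these 4 markers was 955 in WT and 1280 in ibm1-3 in depth-scaled reads per kilobase. Of 4 floral markers, SEP3 and AG were listed at 0 in WT and had 79 and 20 reads in ibm1-3, with AP3 and PI listed at 0 in both libraries. The part of these cells or stages in the low light ratios was not tested.

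The genotype differences in high and low light were then set against each other, gene by gene, in a limma fit of the 3 within-pair log2 ratios, where the low light ratio is assumed to vary like those of high light. Of the 8 genes 5 differed between the light conditions, 2 with a higher and 3 with a lower ratio in high light, against 63.1% of 15851 genes, 38.9% higher and 24.2% lower. With size factors 6 of 8 differed, and the split over all genes was 32.1% higher and 32.2% lower. WRKY70 differed by -2.04 ± 0.1 (SE, 2 high light ratios against 1 low light ratio; limma adjusted p = 4.51e-07), from -0.73 and -0.81 in the high light pairs to 1.27 in low light. Among all genes, 1.32% passed as lower in high light while at least 2-fold higher in low light, as WRKY70 did. NIMIN2 went the opposite way, with 0.82 and 0.8 in high light and -0.43 in low light, a difference of 1.24 ± 0.12 (adjusted p = 2.17e-05). Genes that passed as higher in high light with a ratio below 0 in low light, as NIMIN2 did, made up 24.1%. PR5 differed by 0.79 ± 0.1 (adjusted p = 0.00017), its low light ratio being the one away from 0. NIMIN1 differed by -1.99 ± 0.26 (adjusted p = 0.000196), and its ratios were positive in all 3 pairs. Part of its difference rests on the scale, since log2(FPKM + 1) shrinks the high light ratios of low genes only. With low light also on log2(RPKM + 1), an alternative chosen after the data were seen, the NIMIN1 difference was -1.73 (limma adjusted p = 0.000489).

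For PR1, WRKY62 and PR2 a difference between light conditions was not shown. PR1 gave 1.93 and 2.65 in high light and 2.39 in low light, a difference of -0.1 ± 0.25 (limma adjusted p = 0.743), and the spread between its high light pairs exceeded that difference. WRKY62 gave 2.06, 1.79 and 2.02 (difference -0.1 ± 0.22, adjusted p = 0.709), and PR2 gave -0.41, -0.41 and -0.29 (-0.12 ± 0.12, adjusted p = 0.406; with size factors -0.34, adjusted p = 0.00987). WRKY38 differed by -1.6 ± 0.21 (adjusted p = 0.000188), but the size rests on the scale. With a pseudocount of 0.1 it was -0.96 (adjusted p = 0.0128), and with the low light values also taken as log2(RPKM + 1), an alternative chosen after the data were seen, the difference was -0.76 (adjusted p = 0.0131). PR1, WRKY38 and WRKY62 were at least 2-fold higher in ibm1-3 in all 3 pairs, a pattern held by 1.44% of 15851 genes.

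**Figure D3:**
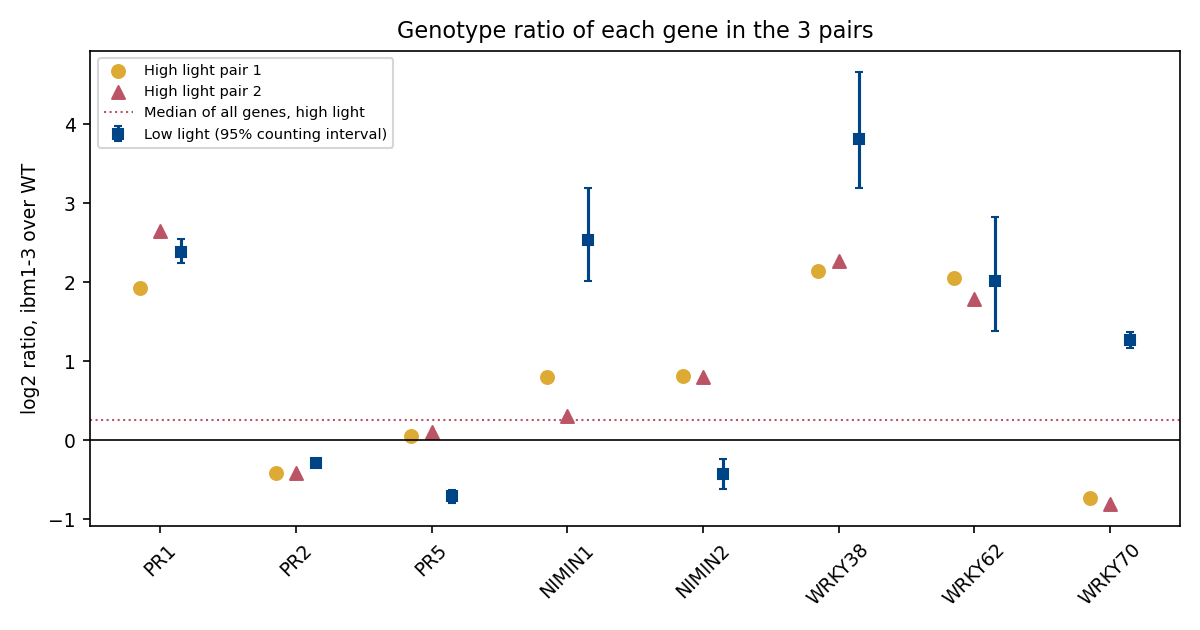
Log2 ratio of ibm1-3 over WT for each gene in high light pair 1 (circles), high light pair 2 (triangles), both on the log2(FPKM + 1) scale, and the low light pair (squares, bars are exact 95% counting intervals); the dotted line is the median of all genes in high light, 0.251. PR1, WRKY38 and WRKY62 lie near or above 2 in most pairs, whereas WRKY70 changes sign from 1.27 in low light to -0.73 and -0.81 in high light.

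Levels can be set across libraries only as ranks, because the tables were normalized separately and list different gene lengths (902 and 760 bases for PR1). Per length, PR2 stood highest among the 8 genes in every library, at percentiles from 99.1 to 99.9 of the 20575 genes. PR5 followed at 96.2 to 99.1, except in low light ibm1-3, where PR1 stood above it. WRKY70 stood at 97.6 and 97.8 in the high light WT libraries and at 86.4 in the low light WT library, against 95.2, 95.1 and 95.8 in ibm1-3. PR1 stood at 59.6, 61.3 and 78 in WT and at 85.9, 92.1 and 97.1 in ibm1-3. WRKY38 and WRKY62 lay between percentiles 21 and 32.4 in WT and between 41.3 and 61.9 in ibm1-3. NIMIN1 stood between 26.9 and 37.7 in 5 libraries and at 70.3 in low light ibm1-3.

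The other genes of the route moved in a different order. Of 18 salicylate synthesis and signalling genes 9 were higher in ibm1-3 after high light, 3 were lower and 6 did not pass (median 0.26, against 0.251 for all genes). Over all genes 49.2% rose and 26% fell, so the share of rises is that of the background. With size factors 8 rose and 6 fell, against 38.9% and 35.1% of all genes. Without the replicate block 4 rose and 0 fell, and 4622 of 17399 genes passed in either direction. In low light 0 of the 18 were at least 2-fold higher in ibm1-3 and 5 were at least 2-fold lower, against 5.68% and 9.73% of all genes. ICS1, the isochorismate synthase that starts salicylate synthesis, was higher in ibm1-3 by 0.4 ± 0.06 after high light (limma adjusted p = 0.000512). The median of all genes was 0.251 in that fit. With size factors the ICS1 difference was 0.17 (limma adjusted p = 0.0258), and without the replicate block it did not pass (limma adjusted p = 0.259). In low light ICS1 had 1514 reads in WT and 1060 in ibm1-3. NPR1 fell by 0.56 ± 0.07 (adjusted p = 0.000224; 0 of the 4 reduced fits passed), with 41.34 and 36.88 FPKM in WT against 26.6 and 25.69 FPKM in ibm1-3. Its low light ratio of -0.88 was on the same side. NPR3, a salicylate receptor that represses defence genes, was higher in ibm1-3 by 2.03 ± 0.08 after high light (limma adjusted p = 4.93e-07). It had 21.1 and 20.48 FPKM in WT against 81.67 and 95.41 FPKM in ibm1-3. The low light ratio of NPR3 had the opposite sign, -0.69 (1501 reads in WT and 944 in ibm1-3), and that of TGA3, taken up below, was -0.14. The transcription factor gene CBP60G, which activates ICS1, and SAG101, a partner of EDS1, were higher in ibm1-3 after high light. They differed by 1.69 ± 0.07 and 1.71 ± 0.06 (limma adjusted p = 5.39e-07 and 4e-07), and stood at -1.81 and -1.12 in low light. Leaving out WT replicate 1 cost both their calls (0.0593 and 0.0651), as did leaving out WT replicate 2 (0.0696 and 0.0548). TGA3, an NPR1 partner, rose by 1.01 ± 0.07 (adjusted p = 6.65e-06) but in none of the 4 fits that drop a library (lowest 0.1).

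Of 16 tested genes among 17 other salicylate outputs, 7 were higher in ibm1-3 after high light, 6 were lower and 3 did not pass (median -0.04). Over all genes 49.2% rose and 26% fell. With size factors 7 rose and 8 fell, against 38.9% and 35.1% of all genes. Without the replicate block 5 rose and 2 fell, and 4622 of 17399 genes passed in either direction. In low light 4 of the 15 measured were at least 2-fold higher in ibm1-3 and 5 at least 2-fold lower, against 5.68% and 9.73% of all genes. The low light rise of 5 of the 8 members was thus not theirs alone. WRKY40, WRKY18, WRKY53 and WRKY46 rose by 3.92 ± 0.07, 3.15 ± 0.06, 3.01 ± 0.06 and 2.51 ± 0.06 (limma adjusted p from 2.37e-08 to 7.82e-08), and their low light ratios were -2.51, -1.23, -1.16 and -1.28. These 4 WRKY genes thus had the sign of PR1, WRKY38 and WRKY62 in high light and the opposite sign in low light. Counting GRXC9, a glutaredoxin that binds TGA factors, 5 of 15 outputs measured in all pairs passed as higher in high light while at least 2-fold lower in low light, as did 4 of the 18 synthesis and signalling genes (EDS5, EDS1, SAG101, CBP60G) and 0 of the 8 members, against 6.42% of all genes. DLO1, a salicylate hydroxylase, and LURP1, a gene needed for resistance to an oomycete, showed the reverse, as WRKY70 did: DLO1 fell by 1.78 ± 0.06 and stood at 2.08 in low light, and LURP1 fell by 0.75 ± 0.06 and stood at 1.28. WRKY54, the nearest homologue of WRKY70, rose by 0.74 ± 0.07 (adjusted p = 4.23e-05; 0 of the 4 reduced fits passed) and stood at 2.09 in low light. NIMIN3, the third NPR1-binding repressor measured, fell by 0.9 ± 0.07 (adjusted p = 1.56e-05; 0 of the 4 reduced fits passed) and stood at -0.53 in low light, so that in high light it moved against NIMIN1 and NIMIN2. DLO1, LURP1, GRXC9, EDS5 and EDS1 fall outside the rule for named genes: their values were known when they were picked.

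PR genes of the jasmonate and ethylene branch did not share the direction of PR1. Of 3 tested, 2 were lower in ibm1-3 after high light and 1 did not pass, against 26% of all genes that fell. In low light all 3 were at least 2-fold lower in ibm1-3, against 9.73% of all genes. The defensin gene PDF1.2A fell by 4.73 ± 0.06 (limma adjusted p = 1.48e-08), with 630.58 and 968.79 FPKM in WT against 22.48 and 36.04 FPKM in ibm1-3. It had 6734 and 44 reads in low light. PR4, a chitin-binding protein gene, fell by 1.8 ± 0.06 (adjusted p = 3.09e-07; of the 4 reduced fits it passed only the one lacking ibm1-3 replicate 2, 0.0184, and gave 0.0655 without WT replicate 1, 0.133 without WT replicate 2 and 0.0892 without ibm1-3 replicate 1). The chitinase gene PR3, with WT values of 5 and 10.16 FPKM and ibm1-3 values of 4.91 and 9.33, missed the threshold (limma adjusted p = 0.59; with size factors it fell, 0.0491), while in low light it had 645 and 78 reads.

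**Figure D4:**
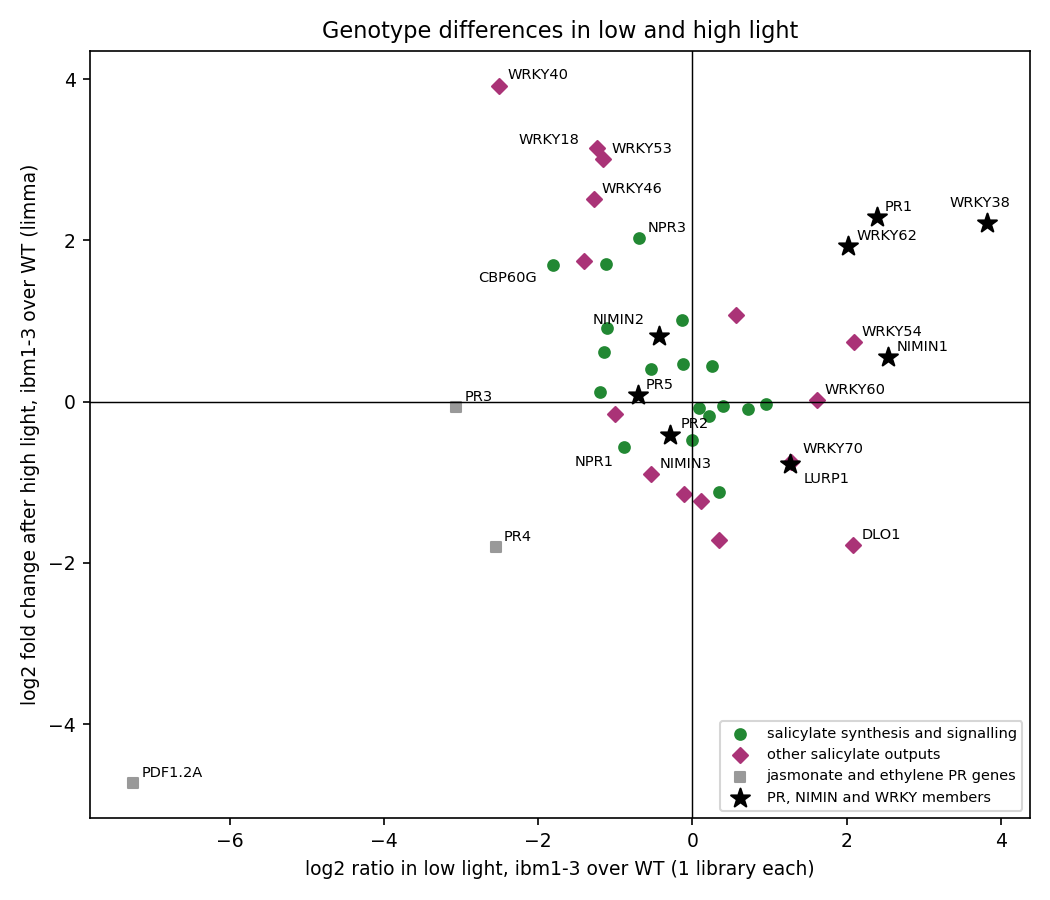
Log2 ratio of ibm1-3 over WT in low light (horizontal, 1 library per genotype) against the limma log2 fold change after high light (vertical, n = 2 per genotype) for the 8 members (stars) and the genes of 3 lists. PR1, WRKY38 and WRKY62 lie in the upper right, WRKY40, WRKY18, WRKY53 and WRKY46 in the upper left, WRKY70 with LURP1 and DLO1 in the lower right, and PDF1.2A, at -4.73 and -7.25, in the lower left.

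By distance over the 3 pair ratios, the genes most like PR1 among 15850 were AT4G04750, OPR2, SDR4, AT5G41830 and HCS2, at distances from 0.41 to 0.55 on the log2 scale. None of these 5 is a member or a listed pathway gene. Their pair 1 WT levels were 1.32, 6.28, 0.97, 2.97 and 0.08 FPKM, against 10.98 for PR1. The log2(FPKM + 1) scale understates ratios of genes near or below 1 FPKM, so likeness to such genes depends on that scale. WRKY62 ranked 28th (0.94) and WRKY38 ranked 95th (1.49). NIMIN1 ranked 1114th, NIMIN2 5338th, PR5 11415th, WRKY70 11826th and PR2 12622nd. The measure rests on 3 ratios and is a description with no test.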

How the data were processed

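RNA from rosette leaves was sequenced in 6 libraries. The submitters' processing notes name Bowtie2 and build TAIR10. How reads were counted, with which strand setting and filters, is not given in the sources used here; labels and the series text name different RNA kits and do not say which sequencing protocol each sample had. The high light tables hold FPKM, and for pair 1 also estimated counts, as deposited by the authors and named in the file headers; the 2 tables were normalized separately. The low light table holds a deposited signal per gene whose steps equal whole reads (100% of values within 0.01 of a step); the smallest value is 15 reads and lower genes are listed at 0, so 14 reads stood in for these in ratios.

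High light was tested with limma 3.58.1 (R 4.3.3) on log2(FPKM + 1), for genes of at least 1 FPKM in 2 libraries, with the table, which is also the replicate number, as a block (same-numbered deviations correlated at 0.89 across genes) and Benjamini-Hochberg adjustment at 0.05. The fit has 1 residual degree of freedom beside 6.17 prior ones. Tested on simulated data, this fit and that of high minus low light gave false calls above the nominal share, so adjusted p-values near the threshold may be too small. The pair 1 columns are unnumbered, and some descriptions disagree with titles on it. No count test was run on high light, since pair 2 has no counts. Low light ratios used edgeR 4.0.16 (TMM, prior count 1, at least 50 reads over both libraries) and exact 95% counting intervals, which cover counting error only; called means at least 2-fold apart. Promoter cores were searched in Python 3.11.15; the promoter of PR1 is not reported here.

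Named genes are the 8 members, up to 4 per list with the smallest high light p, NPR1, ICS1, NIMIN3 and WRKY54, and the 5 genes nearest PR1. Members and lists were chosen with earlier results of these data known. The high light pair 2 table also held 1003 rows with suffixed identifiers, which were left out.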

Additional observations from a re-analysis of the deposited data

Results flagged for a closer look

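For 5 of the 8 genes the genotype difference after high light departed from that in low light by the limma test of the difference itself. The difference, high minus low on the log2 scale, was -2.04 for WRKY70, 1.24 for NIMIN2 and 0.79 for PR5. It was -1.99 for NIMIN1 and -1.60 for WRKY38 (-1.73 to -2.15 and -0.76 to -1.76 under the other scalings and pseudocounts). The share of all genes that passed this test was 63.1%, so the number of genes is near the background. The sign of the genotype ratio itself was opposite in the 2 light conditions for WRKY70 and NIMIN2. PR5 stood at 0.05 and 0.11 in high light and at -0.71 in low light, but its high light sign turned with size factors (-0.15) and is not counted. Light, plant age and the deposited table cannot be told apart in this difference, and the error of the single low light ratio is taken from the high light pairs.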

How the results depend on the processing

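Across the alternatives with a test, 58 single values kept their direction and their side of the threshold, 24 lost the threshold, 1 gained it and 5 changed sign. Of the values with no test, 32 stayed within their standard error or counting interval, 6 moved beyond it and 2 changed sign. Without the replicate block, 3 of the 8 genes passed after high light, of them 3 higher, and 4622 of all genes; PR2 (adjusted p = 0.255), NIMIN1 (0.254), NIMIN2 (0.173) and WRKY70 (0.0601) missed the threshold. Dropping 1 library at a time, the counts ran from 1 to 3 genes, from 1 to 3 higher, and from 1242 to 3395 of all genes. Those fits carry no block. PR5 after high light turned to -0.15 with size factors and ran from -0.27 to 0.44 with a library left out (-0.24 without WT replicate 1, -0.27 without ibm1-3 replicate 2). The high minus low difference of PR1 ran from -0.46 to 0.26 with a replicate pair left out, and that of WRKY62 from -0.24 to 0.04. WRKY62 also turned to 0.33 with a pseudocount of 0.1 and to 0.41 with low light on log2(RPKM + 1), so the sign of its difference rests on the scale. Neither of these WRKY62 values passed (adjusted p = 0.337 and 0.129), and the values with a pair left out have no test. Low light depth limits WRKY38, WRKY62 and NIMIN1, with 18, 21 and 30 reads in WT.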
